A study of Mus musculus with 2 samples.

Results

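Astrocyte marker genes are genes whose transcripts are used to recognise astrocytes, and 10 of them were followed here, namely Gfap, S100b, Aqp4, Slc1a2, Slc1a3, Aldh1l1, Clu, Apoe, Slc4a4 and Hepacam. Members were all non-control probes whose gene name in the scanner files was one of these symbols. This gave 17 probes of 55674 in all, for 10 of 36400 gene names. Of the 10 genes, 6 had a single probe and 4 had several, and every probe was kept apart. The accessions of all 17 probes led to the same symbol in a RefSeq gene table.

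Both samples were tertiary neurospheres, floating clusters of neural stem and progenitor cells (NSPCs), grown from mouse embryonic stem cells by way of embryoid bodies, at passage 2 and day 18. One group served as the overexpression control, and the cells of the other overexpressed the microRNA miR-153. Each group had 1 array, and both arrays lay on 1 slide. The stem cell line, the way miR-153 was delivered and the number of cultures behind each RNA were not given in the sources used here. The labels name no separate culture or sort, so each array describes whatever mixture of cells the neurospheres held.

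Astrocytes arise late from neural stem cells, after neurons. Radial glia and young astrocytes already make the glutamate transporter SLC1A3 (GLAST) and the folate enzyme ALDH1L1, whereas GFAP, S100B, the water channel AQP4 and the glutamate transporter SLC1A2 (GLT-1) are features of more mature astrocytes. In this tissue the nuclear factor I (NFI) transcription factors and STAT3 are known activators of astrocyte genes, and NFIA and NFIB are known targets of miR-153. The question behind the comparison was whether overexpression of miR-153 was accompanied by a different level of astrocyte genes.

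The sequences below show the microRNA that was overexpressed and the probes whose readings have to be told apart. The mature miR-153 sequences are those of RefSeq on GRCm38.p6, from chr12:117250860-117250881 and chr12:117250821-117250843 on the plus strand, and capitals mark the seed, bases 2 to 8.
mmu-miR-153-3p: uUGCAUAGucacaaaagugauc
mmu-miR-153-5p: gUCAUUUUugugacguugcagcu
The DNA letters that pair with the 3p seed, CTATGCA, occurred in 0 of the 17 member probes and in 0.336% of all 55681 non-control probes before spots with an outlier flag were removed. That search covered the 60 bases of each probe on the probe strand, not the rest of the transcript.

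Gfap had 3 probes on the minus strand of chromosome 11 (mm9), shown because their readings differed, and the lower pair carries the accession of another transcript than the first. The first 30 of 60 bases are shown, and no capitals are used because the 3 probes shared no run longer than 6 bases.
Gfap, chr11:102748864-102748923: tttgaggaactgaaacgtgttgtgttcaag
Gfap, chr11:102751813-102751872: ggttatattaacagagctagcctatgctaa
Gfap, chr11:102752726-102752785: caaaaggctcacaatacaagttgtcccaat
Slc4a4 had 3 probes on the plus strand of chromosome 5 (mm9), and 2 of them overlapped by 48 bases with an offset of 12. They are shown over their first 30 bases with the shared 18 bases in capitals, since their readings are not independent.
Slc4a4, chr5:89663826-89663885: aagatcctcaacATTCCTCGAACGCCACAC
Slc4a4, chr5:89663838-89663897: ATTCCTCGAACGCCACACatcatgctgata

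Signals are given as the scanner's background-subtracted intensity, with the error that the scanner software assigned to that spot. A level is log2 of this signal relative to the 75th percentile of its array, which was 435 intensity units for control and 549 for miR-153. A difference is always the level on the miR-153 array minus that on the control array, so a difference of 1 is 2-fold. Higher and lower mean a gap of 2-fold or more between the arrays, a rule of size only. Since each group had 1 array, no replicate check and no p-value could be given. The spread that could be measured was technical. The SD of the difference over repeat spots of a probe had a median of 0.075 over 288 probes, and different probes of a gene had an SD of 0.46 over 3442 genes. Scaling on spike-in RNA added 0.23 to every difference and scaling on the array median added 0.10. The first moved the median of all genes from -0.11 to 0.12.

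The astrocyte markers went in both directions. Clu, S100b and Apoe were at least 2-fold higher with miR-153, Slc4a4 and Hepacam were at least 2-fold lower, and Aldh1l1, Aqp4, Slc1a2, Gfap and Slc1a3 lay between. Of the 17 probes, 15 were well above background on both arrays, 1 on the miR-153 array only, and 1, a Gfap probe, on neither. Over all probes of the array, 49.3% were well above background on both. Among the 15 measured member probes, 3 were higher and 4 lower, where 9.02% of 27439 measured probes were higher and 11.5% lower. The 4 lower probes came from 2 genes, and 3 of them were those of Slc4a4. Taking the brightest probe of each gene, 3 of the 10 genes were higher, against 9.21% of 20490 measured genes, and 2 were lower, against 11.1%. Altogether 5 of the 10 passed 2-fold in either direction, against 20.3% of measured genes. The share of higher genes among all those past 2-fold was 45.4%, and spike-in scaling made it 64.0%. The median difference of the 10 genes was 0.43, beside -0.11 over all measured genes, and 7 of the 10 were above 0. In bulk RNA, fewer cells of a type and less RNA per cell cannot be told apart.

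**Figure D1:**
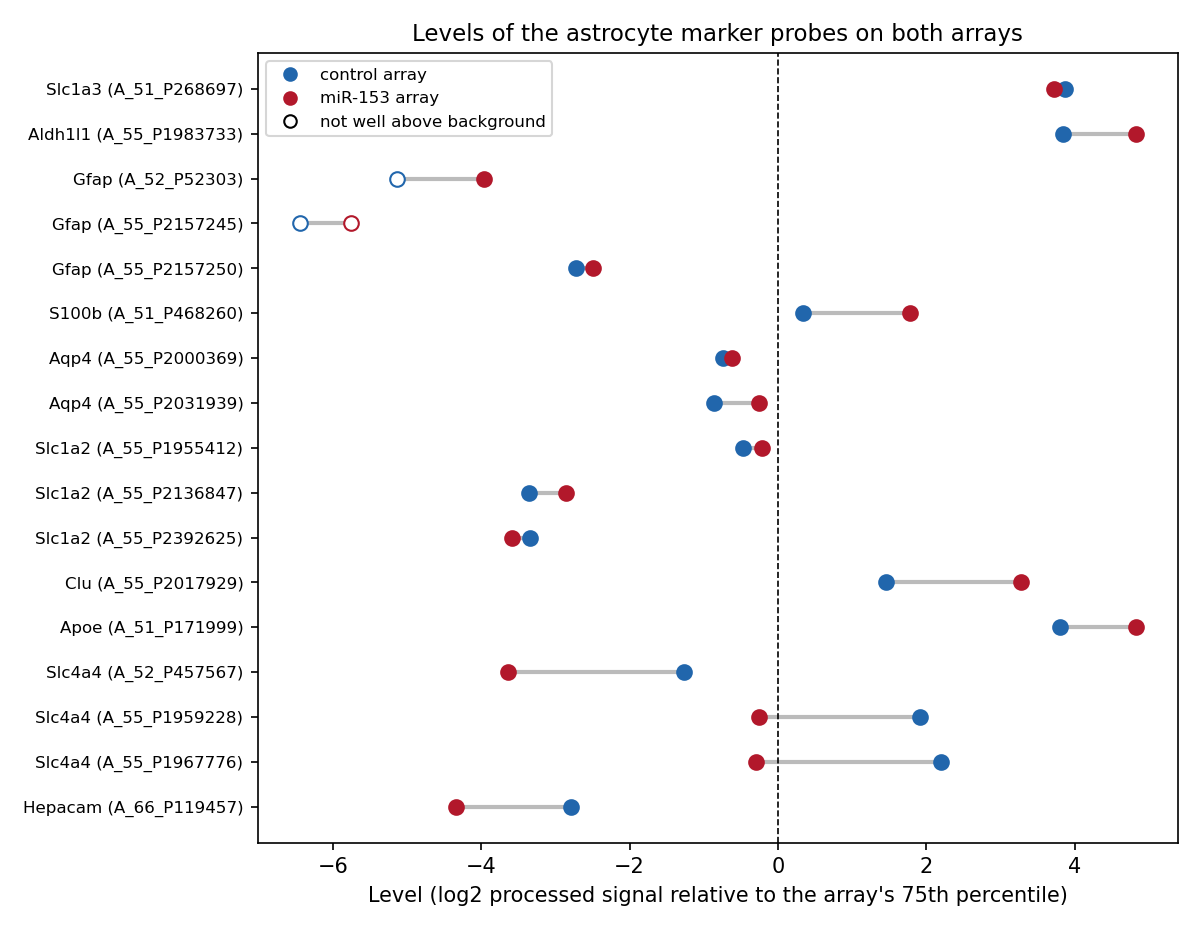
Level of each of the 17 astrocyte marker probes (log2 processed signal relative to the array's 75th percentile, dashed line) on the control array (blue) and the miR-153 array (red), 1 array each; open points were not well above background. The 3 Slc4a4 probes lie to the left on the miR-153 array, Clu and S100b lie to the right, and the Gfap probes stay far below the dashed line on both arrays.

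The early markers were described first. Slc1a3, which clears glutamate in radial glia and astrocytes, gave 6393 ± 639 intensity units with control and 7272 ± 727 with miR-153 (scanner error, 1 spot each; chr15:8584236-8584295, minus strand, mm9). The levels were 3.88 and 3.73, a difference of -0.15 with a scanner error of 0.20, so the arrays were not separated beyond that error. Its sign turned with the scaling, and over the settings it ranged from -0.15 to 0.08. Slc1a3 was thus bright on both arrays and nearly level between them.

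Aldh1l1, the folate enzyme used as a broad astrocyte marker, gave 6228 ± 623 intensity units with control and 15570 ± 1557 with miR-153 (chr6:90549091-90549150, plus strand). The difference of 0.99 ± 0.20 (scanner error) was 1.98-fold, just short of the 2-fold rule. It was the closest gene outside the rule, and Apoe at 1.02 was the closest inside. Aldh1l1 was at least as large under every other setting, up to 1.22 with spike-in scaling, and passed 2-fold with normexp background correction at 1.04. Both early markers were bright, but the median of 0.42 for the 2 rests on genes that differ by more than 1 log2 unit from each other.

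Among mature markers, S100b, a calcium-binding protein made by mature astrocytes and also by oligodendrocyte precursors and Schwann cells, differed most. Its probe gave 553 ± 55.6 intensity units with control and 1896 ± 190 with miR-153 (chr10:75723783-75723842, plus strand). It was 2.72-fold higher, with a difference of 1.44 ± 0.20, and stayed between 1.33 and 1.67 over the settings. S100b was the single mature marker past 2-fold. Of 10 markers of oligodendrocytes, 9 were measured on both arrays, 6 were higher and 1 was lower, with a median difference of 1.54. Their summed level, in units of the array's 75th percentile, was 14.4 with control and 75.7 with miR-153. Cnp, a myelin enzyme gene, differed by 2.88. The precursor genes on this list did not share that size: Cspg4 was the lower gene (-2.00) and Pdgfra was at 0.71. Mog, a myelin gene, was nearly level (-0.04). Of 10 neural crest and Schwann markers, 6 were measured, with 4 higher and 2 lower and a median of 1.14. The higher ones included Egr2 (4.02), a transcription factor of myelinating Schwann cells, and Sox10 (1.54), which oligodendrocytes share. The lower ones were Pmp22 (-2.20, a second probe -0.44), a myelin protein gene, and Gap43 (-1.5), which neurons also express. Their summed level was 96.5 with control and 44.7 with miR-153, but without Gap43 it was 8.66 and 13.7. The Schwann cell gene Erbb3 and the neural crest gene Foxd3 were among 3 that stayed dim (not well above background) on both arrays. The part of these cell types in the S100b difference was not tested.

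Gfap, the intermediate filament that defines reactive and mature astrocytes, had low signal in all 3 probes, of which 1 was well above background on both arrays. The probe at chr11:102748864-102748923 gave 65.9 ± 8.05 intensity units with control and 97.8 ± 10.6 with miR-153, where the median local background was 42 and 41.5. Its difference was 0.23 ± 0.24 (scanner error), and -0.02 with normexp background correction. The probe at chr11:102751813-102751872 gave 12.4 ± 5.10, not well above background, and 35.1 ± 5.63. Set against the dimmest spot that the control array still detected, it was 1.3-fold higher with miR-153. Such a bound is not a strict lower limit, and the probe's difference of 1.17 became 0.10 with normexp. The probe at chr11:102752726-102752785 read 4.99 ± 5.0 with control, a substitute value given by the scanner software, and 10.2 ± 4.53 with miR-153. No Gfap probe showed a 2-fold difference by a measurement on both arrays.

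Aqp4, the water channel of astrocyte endfeet, had 2 probes on different parts of its locus, 3413 bases apart. One gave 240 ± 24.6 intensity units with control and 461 ± 46.3 with miR-153, a difference of 0.61 ± 0.21. The other gave 259 ± 26.5 and 358 ± 36.1, a difference of 0.13 ± 0.21. Both were above 0 in every setting, from 0.07 to 0.84, but their gap of 0.48 was as large as the usual SD between probes of a gene. Neither passed 2-fold.

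Slc1a2, the main glutamate transporter of mature astrocytes, had 3 probes on the plus strand of chromosome 2 that did not share a sign. The brightest, at chr2:102617752-102617811, gave 315 ± 32.0 intensity units with control and 475 ± 47.7 with miR-153, a difference of 0.25 ± 0.21. The probe at chr2:102622252-102622311 gave 42.3 ± 6.16 and 75.8 ± 8.52, a difference of 0.50 ± 0.27. The probe at chr2:102626380-102626439, which carries the same accession as the second, gave 42.7 ± 6.52 and 45.6 ± 6.30, a difference of -0.24 ± 0.30. That last value ranged from -0.33 to -0.01 over the settings. The latter pair, weaker but well above background on both arrays, lay 4128 bases apart and differed from each other by 0.75. Over the 4 mature markers the median difference was 0.43, from 0.23 for Gfap to 1.44 for S100b, beside 0.42 for the 2 early markers. The early and mature medians therefore differed by less than the SD between probes of a gene. That SD does not measure the spread between genes of a group. With Clu and Apoe counted as early and Slc4a4 and Hepacam as mature, the medians were 1.0 and 0.24. Clu and Apoe were higher and Slc4a4 and Hepacam lower, so this gap followed from the assignment and tests nothing.

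**Figure D2:**
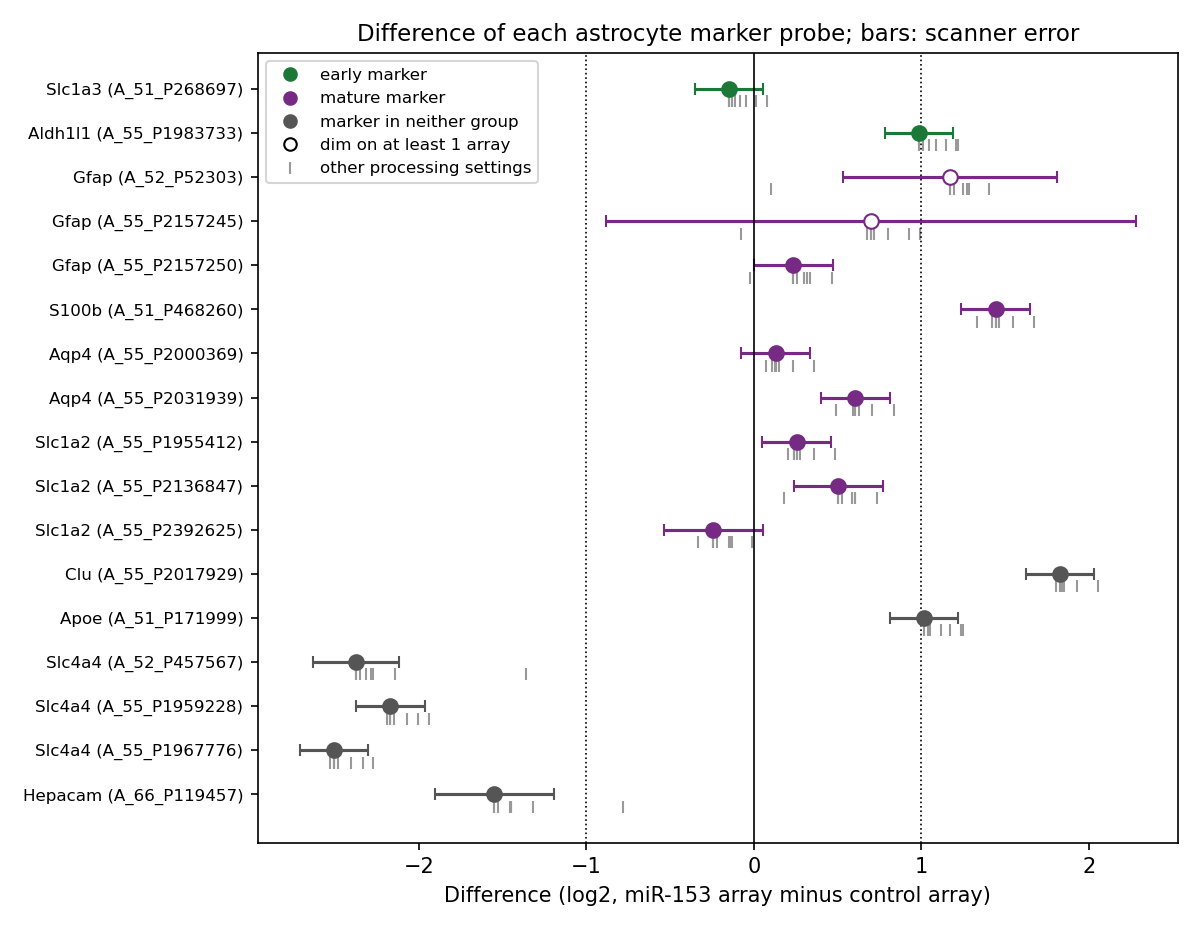
Difference of each of the 17 probes (log2, miR-153 array minus control array); bars are the scanner error of the difference, open points were not well above background on at least 1 array, dotted lines mark 2-fold, and grey ticks give the same probe under 8 other scalings, background corrections or sources of values. The early and mature probes overlap, from -0.24 to 1.44, and the 3 Slc4a4 probes lie together between -2.51 and -2.17.

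Clu and Apoe encode secreted apolipoproteins that astrocytes release, and other cells make them too, so they were put in neither group. Clu, or clusterin, gave 1191 ± 119 intensity units with control and 5330 ± 533 with miR-153 (chr14:66600325-66600382, plus strand). At 3.55-fold, a difference of 1.83 ± 0.20, it had the largest positive difference of the 10 markers, and it ranged from 1.80 to 2.06 over the settings. Clu had a single probe, so no second reading was at hand.

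Apoe, which carries cholesterol between brain cells, had a single probe printed 10 times on each array (chr7:20281732-20281791, minus strand). On the control array the 10 spots gave a lowest value of 5950, a median of 6057 and a highest of 6307 intensity units. On the miR-153 array they gave 15002, 15544 and 15993. No spot of one array overlapped the spots of the other, and the difference was 1.02 ± 0.052 (SD over 10 spots of 1 array pair, which measures printing and scanning and not cultures). Over spots it ranged from 0.91 to 1.09, so that single spots fell on both sides of 2-fold. Microglia also make APOE, and of 9 markers of microglia and blood with a probe, 7 (Aif1, Cx3cr1, P2ry12, Tyrobp, C1qa, Ptprc and Trem2) were dim on both arrays. The other 2, Csf1r at -0.09 and C1qb at -0.01, were nearly level, and both turned sign with spike-in scaling. Their summed level was 1.69 with control and 1.55 with miR-153.

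**Figure D3:**
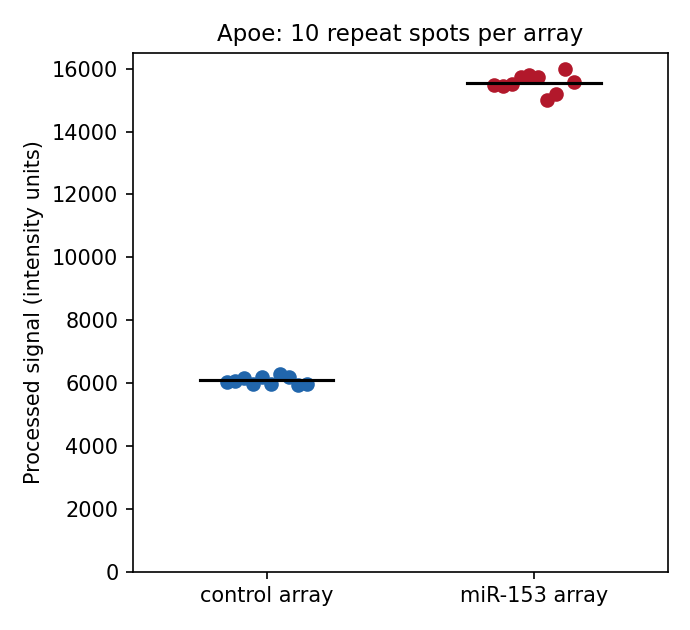
Processed signal of the 10 repeat spots of the Apoe probe on each array (intensity units, linear axis from 0); the horizontal line is the mean over spots. The control spots sit between 5950 and 6307 and the miR-153 spots between 15002 and 15993.

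Slc4a4, an electrogenic sodium bicarbonate cotransporter that regulates pH in astrocytes, had the most negative difference of the 10. The probe at chr5:89663838-89663897 gave 2007 ± 201 intensity units with control and 446 ± 44.8 with miR-153. It was 5.68-fold lower, a difference of -2.51 ± 0.20. The overlapping probe at chr5:89663826-89663885 gave 1643 ± 164 and 461 ± 46.4, a difference of -2.17 ± 0.20. The third, 4776 bases further on at chr5:89668602-89668661, gave 181 ± 18.8 and 44.0 ± 6.30, a difference of -2.37 ± 0.26, or -1.36 with normexp. All 3 were past 2-fold in all settings tried, and the distant probe lay 0.20 and 0.13 from the overlapping pair. Of the bicarbonate transporters on a list of related genes, Slc4a2 (-0.19) and the brightest Slc4a7 probe (-0.22) did not pass 2-fold. Both turned sign with spike-in scaling (0.04 and 0.01). A second Slc4a7 probe was past 2-fold and lower (-1.85), so the probes of that gene did not share a reading. Slc4a8 was 2.41-fold higher (1.27, or 0.92 with normexp). Slc4a10 was well above background with miR-153 only. It was 1.37-fold above the dimmest detected spot of the control array, and its difference with normexp was 0.19.

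Hepacam, an adhesion protein of astrocyte contacts that partners with MLC1, gave 62.8 ± 8.41 intensity units with control and 27.1 ± 5.59 with miR-153 (chr9:37193184-37193243, plus strand). It was 2.93-fold lower, a difference of -1.55 ± 0.36, but -0.78 with normexp, which ends the 2-fold call. The probe was well above background on both arrays, but its signal was of the same order as the median local background. Mlc1 itself was bright and differed by 0.45. Of the 10 markers, Slc4a4 and Hepacam alone passed 2-fold downwards in the main setting.

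The promoter bases were read because NFI genes also differed. By the brightest probe, Nfia was at -1.44, Nfib at -0.88, Nfic at -2.06 and Nfix at 0.33. A second Nfia probe was at -1.80 and a second Nfix probe at 0.37. The 5 Nfib probes ranged from -1.24 to -0.77, on both sides of 2-fold, and the 3 Nfic probes from -2.06 to -1.30. NFI proteins bind the letters TTGGC, best as a pair in which GCCAA follows after 5 bases, and STAT3 binds TTCNNNGAA. Both strands were searched in the 250 bases before each start in RefSeq promoters (GRCm38.p6), where the short NFI letters can lie within the pair. The table held 8 of the 10 markers with 11 starts, and Aqp4 and Clu had no entry. TTGGC was present before 7 of the 11 starts, in Apoe, Hepacam, S100b, Slc1a2 and Slc4a4, and in 41.5% of all 32851 promoters. The full pair was in 0 of the 11 and in 0.0365% of all, and TTCNNNGAA was in 1, that of Slc1a3, and in 7.02% of all. S100b and Hepacam are shown since both hold TTGGC and differed in opposite directions, with TTGGC or its reverse complement in capitals.
S100b, chr10:76253586-76253835, plus strand: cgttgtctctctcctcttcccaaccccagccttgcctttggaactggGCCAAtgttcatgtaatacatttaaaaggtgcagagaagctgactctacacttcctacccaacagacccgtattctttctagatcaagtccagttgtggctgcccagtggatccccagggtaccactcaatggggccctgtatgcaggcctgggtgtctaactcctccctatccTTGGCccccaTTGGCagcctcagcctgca
Hepacam, chr9:37367356-37367605, plus strand: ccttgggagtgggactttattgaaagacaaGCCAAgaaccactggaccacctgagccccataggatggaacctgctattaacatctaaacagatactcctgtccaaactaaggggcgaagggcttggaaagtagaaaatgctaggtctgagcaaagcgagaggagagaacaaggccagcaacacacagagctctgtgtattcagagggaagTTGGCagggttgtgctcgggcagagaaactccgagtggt
S100b held these letters 3 times, the nearest 19 bases before the start, and Hepacam 2 times, the nearest 39 bases before it. Such matches are letters in a window and do not show binding.

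Related genes of the same pathways were then placed beside the markers. Together 110 genes were on 7 lists, 102 of them were measured on both arrays, 16 were higher and 17 lower, and their median difference was 0.05. Over all 20490 measured genes, 9.21% were higher and 11.1% lower, with a median of -0.11. These shares are also the comparison for the counts of each list and cell type. In the lipoprotein pathway, 17 of 18 genes were measured, 3 were higher and 3 lower, with a median of -0.02. The higher ones were the cholesterol exporters Abcg1 (2.26) and Abca1 (1.72), which load APOE particles, and Lrp8 (1.48, a second probe 0.32), a receptor for APOE and reelin. The lower ones included the uptake receptor gene Scarb1 (-1.84) and the lipase gene Lpl (-1.33). The other 11 measured genes of this list lay between, so the genes named do not describe the list.

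For transport and coupling in astrocytes, 15 genes were measured. Of these, 3 were higher and 1 was lower, and the median was 0.34. The neuronal glutamate transporter gene Slc1a1 (1.88) and the membrane protein gene Ttyh1 (1.78) were higher. Kcnj10, the potassium channel that sits with AQP4 in endfeet, was 2.16-fold lower (-1.11, or -0.88 with spike-in scaling). Gja1, the gap junction gene connexin 43, was at 0.88, and Gjb6, the connexin of mature astrocytes, was not well above background on either array. Among genes of the complex that anchors AQP4, 2 of 8 were lower and 0 higher: Utrn (-2.62) and Dmd (-1.23, -0.97 with normexp, a second probe -0.53), which encode utrophin and dystrophin.

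For astrocyte metabolism, 18 genes were measured, of which 2 were higher and 3 lower, and the median was 0.02. The metallothionein genes Mt1 (-2.99) and Mt2 (-2.92), which bind metals, were 7.93-fold and 7.58-fold lower, and because they are close in sequence their probes may share signal. The glycogen phosphorylase gene Pygb (2.36) and the phospholipase gene Pla2g7 (1.95) were higher. Glul, glutamine synthetase of astrocytes, was at 0.60, and Fabp7, the fatty acid binding protein of radial glia, at 0.19. For surface and secreted proteins, 21 genes were measured, of which 4 were higher and 3 lower, and the median was 0.21. Itih3 (1.98) and Ndrg2 (1.85), an astrocyte marker of unsettled role, were higher. The matrix genes Thbs2 (-2.74) and Tnc (-2.14, a second probe -2.46) and the hyaluronan receptor gene Cd44 (-1.32) were lower.

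Of the listed genes of the intermediate filament family, to which Gfap belongs, 6 of 8 were measured, 1 was higher and 2 lower, with a median of -0.84. Vim, whose product pairs with GFAP, was at -0.72 and moved to -0.06 at the other end of its range, and Nes was at -0.95. The neuronal filament genes Ina (2.36), Nefm (-1.74) and Nefl (-1.32) passed 2-fold. Prph, also a neuronal filament gene, was well above background with control only. It was 2.19-fold above the dimmest detected spot of the miR-153 array, and its difference with normexp was -0.53. Among gliogenic transcription factors, 17 genes were measured, of which 3 were higher and 3 lower, and the median was 0.03. Id4 (3.21), an inhibitor of basic helix-loop-helix factors, and Hes5 (2.44), a Notch target, led the higher ones, and Atf3 (-2.86), a stress response factor, led the lower ones, followed by Nfic and Nfia. Sox9, which acts with NFIA in early gliogenesis, was at 0.77, and Stat3 at -0.58 with a second probe at -1.10.

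The labelled cell type was checked against NSPC markers, and all 10 on the list, among them Sox2, Nes and Fabp7, were well above background on both arrays. Of these, 3 were higher (Hes5 at 2.44, Prom1 at 1.74 and Sox1 at 1.15, with a second Sox1 probe at 0.40) and 0 lower. Their summed level was 717.2 with control and 717.3 with miR-153, most of it from Fabp7 and Vim, which differed in opposite directions. Without these it was 77.7 and 134, so the equal sums do not show that the markers were level. All 10 neuron markers were measured, 7 were higher and 0 lower, with a median of 1.58 and a summed level of 59.6 with control and 187 with miR-153. Ependymal and choroid plexus cells also make Clu and Aqp4. Of 10 markers of these cells, 7 were measured, 3 were higher and 0 lower, with a median of 0.97. The higher ones were Folr1 (2.34), Dynlrb2 (1.79) and Cfap126 (1.23). Ttr was well above background with miR-153 only. It was 1.97-fold above the dimmest detected spot of the control array, and its difference with normexp was 0.44. The choroid plexus channel gene Kcnj13 went the other way. Kcnj13 was well above background with control only, 4.72-fold above the dimmest detected spot of the miR-153 array. Its difference with normexp was -1.19. The summed level was 35.4 and 48.3, and without Otx2 it was 3.14 and 8.48. Mesenchyme and vessel wall markers had 4 of 8 higher and 0 lower, with a median of 0.48. Their summed level was 21.0 and 18.9, and without Kdr it was 4.40 and 8.51. The part of these cell types in the Clu, Apoe and Aqp4 differences was not tested. Of all non-control spots, 52.5% were well above background with control and 55.6% with miR-153, and no spot was saturated. The probes included 0 for the miR-153 gene, so the overexpression itself could not be read from these arrays.

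**Figure D4:**
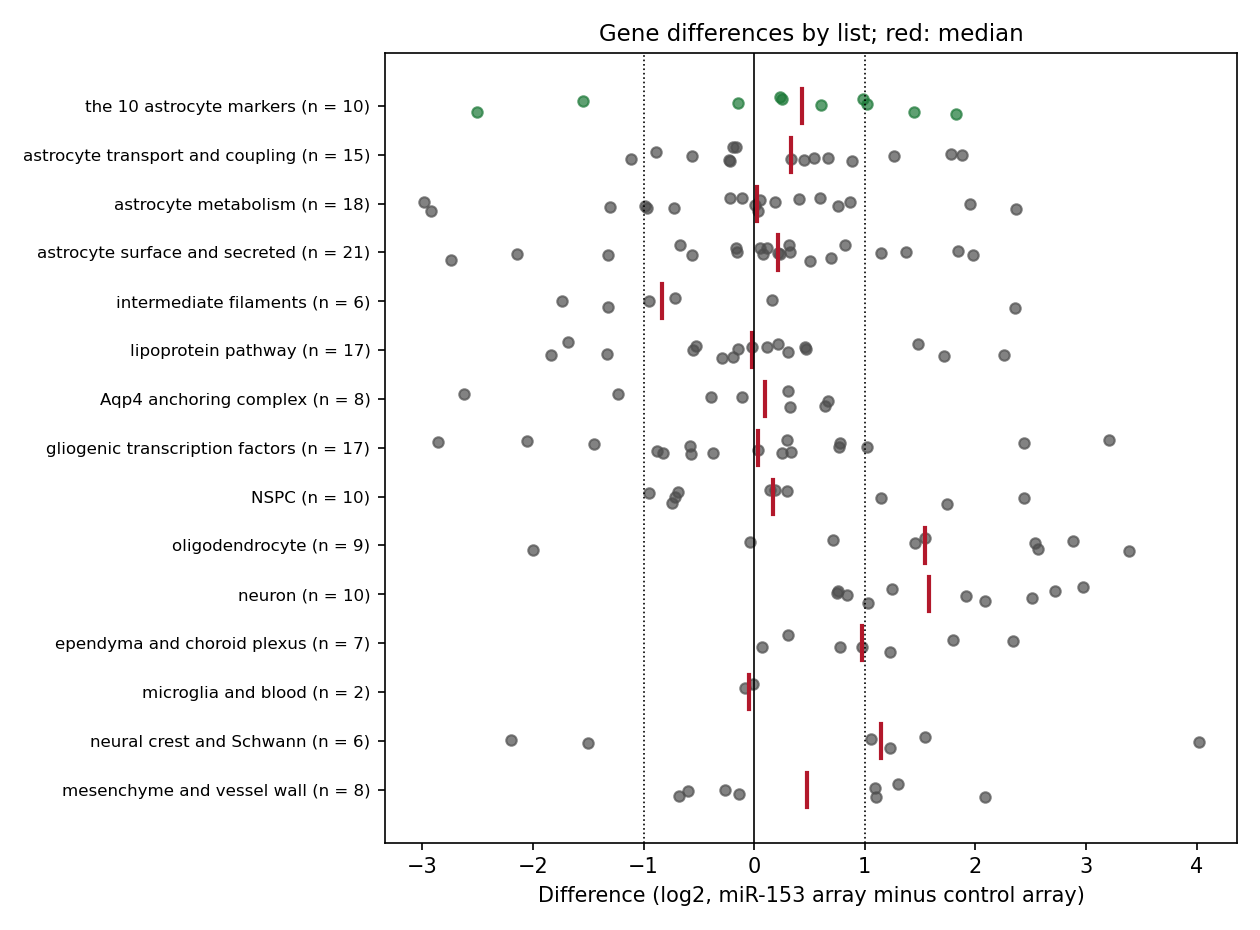
Difference (log2, miR-153 array minus control array) of each gene well above background on both arrays, by list, with the list median in red and dotted lines at 2-fold; a gene is shown by its brightest probe. The 10 astrocyte markers spread from -2.51 to 1.83 around a median of 0.43, while all 10 neuron markers lie above 0.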

How the data were processed

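Total RNA of 2 samples was labelled with Cy3 and hybridised to 1-colour Agilent arrays, per the labels' protocols. The authors deposited linear intensity values. The submitters' processing notes name Agilent Feature Extraction 10.7.3.1. The series table's columns equal the processed signal divided by 381 (control) and 485 (miR-153), so it is linear, not centred and not inverted (medians 0.0662 and 0.0614). Table columns of other samples numbered 0.

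Of 59305 non-control spots, 229 with an outlier flag were left out, and none of them was a member. Repeat spots were averaged, and log2 signal was scaled on the 75th percentile of each array. Gene lists were read by the brightest probe, after RefSeq (GRCm38.p6) had named 26296 probes (47.2%). Probe positions are those of the file headers' mm9 annotation, which gives no exon or UTR. The error of a difference combines the scanner errors of both spots. The calculation was tested on simulated data. Alternatives used limma 3.58.1 in R 4.3.3 (normexp, offset 50) and statsmodels 0.14.6 (lowess). Having 1 array a group limits the precision.

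Named genes were all members, up to 4 per list past 2-fold with the largest bound, and 12 genes known beside these markers. Other genes (Slc4a2, Slc4a7, Slc4a10, Mlc1, Gjb6, Stat3, Csf1r, C1qb, Cspg4, Pdgfra, Mog and Ttr) were picked with their values in view. They were partners of a member, explained a small count or showed the spread of a list. Some genes of the lists are counted but not reported by name here. Members and lists were chosen with earlier results of these data known.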

Additional observations from a re-analysis of the deposited data

How the results depend on the processing

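Each result was recomputed under 8 other backgrounds, scalings or sources of values, and counts also under other fold rules, filters and probe choices. With a 1.5-fold rule 5 member probes were higher, and with a 3-fold rule 1 was. With Clu and Apoe added, the early median was 1.0. The other 59 recomputed counts and medians stayed within 1.5 times the main count or within the SD between probes. Of single-probe values, 119 moved by less than the scanner error of the difference and 17 by more. Among those past 2-fold, 0 turned sign, but a 2-fold call could be lost or gained. With normexp, Hepacam lost it (-0.78) and Aldh1l1 gained it (1.04). The sign of 3 probes (Slc1a3 and 2 of Gfap) differed between settings. Over all genes, normexp left 1199 higher, against 1887 in the main setting. No paired analysis was possible because each group had 1 array, and for the same reason no replicate could be left out. Probes of low signal (Gfap, Hepacam and the weaker Slc1a2 pair) are limited by their signal over background.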
